A study of Mus musculus with 12 samples.

Results

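A set of 10 genes of tissue calcification was followed on 12 microarrays of the mouse aorta, in a model of aortic dissection with and without rapamycin. They are Alpl, Phex, Enpp1, Ank, Mgp, Bmp2, Bmp4, Runx2, Sost and Ibsp, and 15 of the 55675 array probes, which carry 34796 gene names, bear one of these names. The list was chosen by name with earlier results of these arrays known. Alpl and Phex were selected on their levels in mice that received both the challenge and rapamycin, so their differences that involve that group are given as a description with no test, and the tests of the other genes are not independent support. A probe entered the tests if it cleared the background of the array (well above background, a flag of the scanner software) in all 3 mice of some group, which left 8 of the 10 genes. All 8 cleared it in the DMSO mice and in the rapamycin mice. None of the 3 Runx2 probes and neither Ibsp probe was well above background on any array.

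The mice were C57BL/6J males of 11 to 14 weeks, with 3 in each of 4 groups. Each array held the RNA of the aorta of 1 mouse, on day 3 per the series record. The challenge (BA) was a continuous infusion of beta-aminopropionitrile (BAPN), which blocks collagen crosslinks, at 150 mg/kg/day with angiotensin II at 1 µg/kg/min. Rapamycin, which inhibits the kinase mTOR, was injected into the peritoneum daily at 2 mg/kg/day, and mice without it received the vehicle dimethylsulfoxide (DMSO). The groups were DMSO, rapamycin, BA+DMSO and BA+rapamycin. No mouse carried a modified allele per the sources used here, and no calcium deposit was measured on these arrays.

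Mineral forms in a vessel wall when phosphate and calcium outweigh the inhibitors that hold them in solution. Pyrophosphate is one such inhibitor. Enpp1 makes it from ATP, Ank releases it or its precursor from the cell, and Alpl, the tissue-nonspecific alkaline phosphatase, breaks it down to phosphate. Mgp is a vitamin K-dependent matrix protein of smooth muscle and cartilage that keeps arteries free of mineral. Bmp2 and Bmp4 are secreted signals that can turn mesenchymal cells toward bone, and Runx2 is the transcription factor of that fate. Phex is a membrane peptidase of bone cells that lowers the hormone Fgf23 and breaks down mineral-binding peptides. Sost encodes sclerostin, which blocks Wnt signals in bone and is also made in the aorta. Ibsp encodes bone sialoprotein.

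The sequence before the start site is shown for 4 members, Sost and Bmp4, which were called below, and Alpl and Phex, whose levels in BA+rapamycin stand out, with 250 bases each from RefSeq on GRCm38.p6, 5′ to 3′ along the gene. The array files place their probes on mm9, another build, and Alpl has 1 probe for its 2 start sites, so the arrays do not tell the starts apart. The windows lie on the minus strand at chr4:137796385-137796634 and chr4:137766476-137766725 for Alpl, chrX:157415287-157415536 for Phex, chr11:101967016-101967265 for Sost and chr14:46390670-46390919 for Bmp4. Capitals mark matches on either strand to 5 motifs. The first motif searched was TATAAA, which is the core of the TATA box. The second was GGGCGG, known as the GC box. The third was TGTGGT, the core recognised by Runt proteins such as Runx2. The fourth was CACGTG, which is 1 form of the E-box of helix-loop-helix proteins, and other forms were not searched. The fifth was TGACTCA, recognised by the AP-1 proteins. A match is a description of letters and not a bound site.
Alpl start 1: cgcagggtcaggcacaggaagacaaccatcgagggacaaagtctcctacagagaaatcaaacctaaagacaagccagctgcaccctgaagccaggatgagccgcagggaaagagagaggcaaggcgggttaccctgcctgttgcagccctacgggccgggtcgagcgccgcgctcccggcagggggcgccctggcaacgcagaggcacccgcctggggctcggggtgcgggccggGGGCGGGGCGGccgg
Alpl start 2: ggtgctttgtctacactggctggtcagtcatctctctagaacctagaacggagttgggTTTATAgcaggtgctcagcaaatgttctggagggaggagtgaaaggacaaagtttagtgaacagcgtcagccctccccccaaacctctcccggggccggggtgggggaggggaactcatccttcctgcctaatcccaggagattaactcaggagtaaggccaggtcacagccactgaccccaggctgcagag
Phex: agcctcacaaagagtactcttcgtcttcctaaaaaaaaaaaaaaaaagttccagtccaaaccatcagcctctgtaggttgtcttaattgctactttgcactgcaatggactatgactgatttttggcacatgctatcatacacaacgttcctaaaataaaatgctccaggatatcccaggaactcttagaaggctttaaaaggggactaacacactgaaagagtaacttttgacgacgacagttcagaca
Sost: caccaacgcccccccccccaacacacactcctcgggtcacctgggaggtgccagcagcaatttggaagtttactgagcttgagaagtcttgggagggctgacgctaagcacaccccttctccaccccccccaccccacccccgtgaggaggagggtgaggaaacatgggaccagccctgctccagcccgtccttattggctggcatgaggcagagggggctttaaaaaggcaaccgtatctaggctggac
Bmp4: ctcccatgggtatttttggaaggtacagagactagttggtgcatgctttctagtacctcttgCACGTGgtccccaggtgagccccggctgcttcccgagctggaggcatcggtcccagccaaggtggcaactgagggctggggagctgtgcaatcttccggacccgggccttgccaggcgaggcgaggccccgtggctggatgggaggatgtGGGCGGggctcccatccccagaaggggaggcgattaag

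The windows differed in base composition, with a GC content of 68.4% and 56% at the Alpl starts, 39.2% for Phex, 61.2% for Sost and 63.2% for Bmp4, against a median of 52.4% over 32851 windows of the same length. The first Alpl window held 2 overlapping GC boxes, 15 to 5 bases before the start, and 32.7% of all windows held at least 1. The second Alpl window held the TATA core on the reverse strand, a motif in 12.4% of all windows. The Bmp4 window held a GC box and the E-box form CACGTG, the latter found in 6.02% of all windows. No window of Phex or Sost held any of the 5 motifs, and neither the Runt motif (14% of all windows) nor the AP-1 motif (4.46%) was in the 5 sequences shown. Of the other members, the Runx2 and Enpp1 windows held the Runt motif on the reverse strand. In all, 8 members matched the RefSeq table, with 9 windows.

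The brightness of the arrays differed with the challenge. The 75th percentile of signal intensity ranged from 221.5 to 337.3 on the 6 arrays without challenge. It ranged from 78.1 to 246.4 with BA+DMSO, and the 3 BA+rapamycin arrays were the dimmest as a group (74.6 to 109.3). DMSO arrays and 1 rapamycin array shared slide 1, and the other 8 arrays shared slide 2, so slide and challenge are nearly confounded. The BA+DMSO arrays were the least alike, with a lowest correlation over all probes of 0.949 between replicates 2 and 3, against 0.974 or more within every other group. Replicate 3 of BA+DMSO correlated best with a DMSO array (r = 0.975) and replicates 1 and 2 with a BA+rapamycin array (r = 0.977 and 0.981). Markers of smooth muscle were present as the label aorta implies (8 of 8 well above background on all 12 arrays). Of 11 osteoblast and osteocyte markers, 6 were above background on no array, Bglap, Sp7, Dmp1 and Dkk1 among them, and the list's own Sost and Phex were not. Of 10 kidney and adrenal markers, 7 were above background on no array.

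Values below are log2 intensities relative to the 75th percentile of the array, and a difference is between group means of 3 mice with its standard error (SE). A gene is called at a limma adjusted p under 0.05 over 27801 probes. The comparisons share groups, so they are not independent of each other. In tissue RNA, fewer cells of a type and less RNA per cell cannot be told apart.

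**Figure D1:**
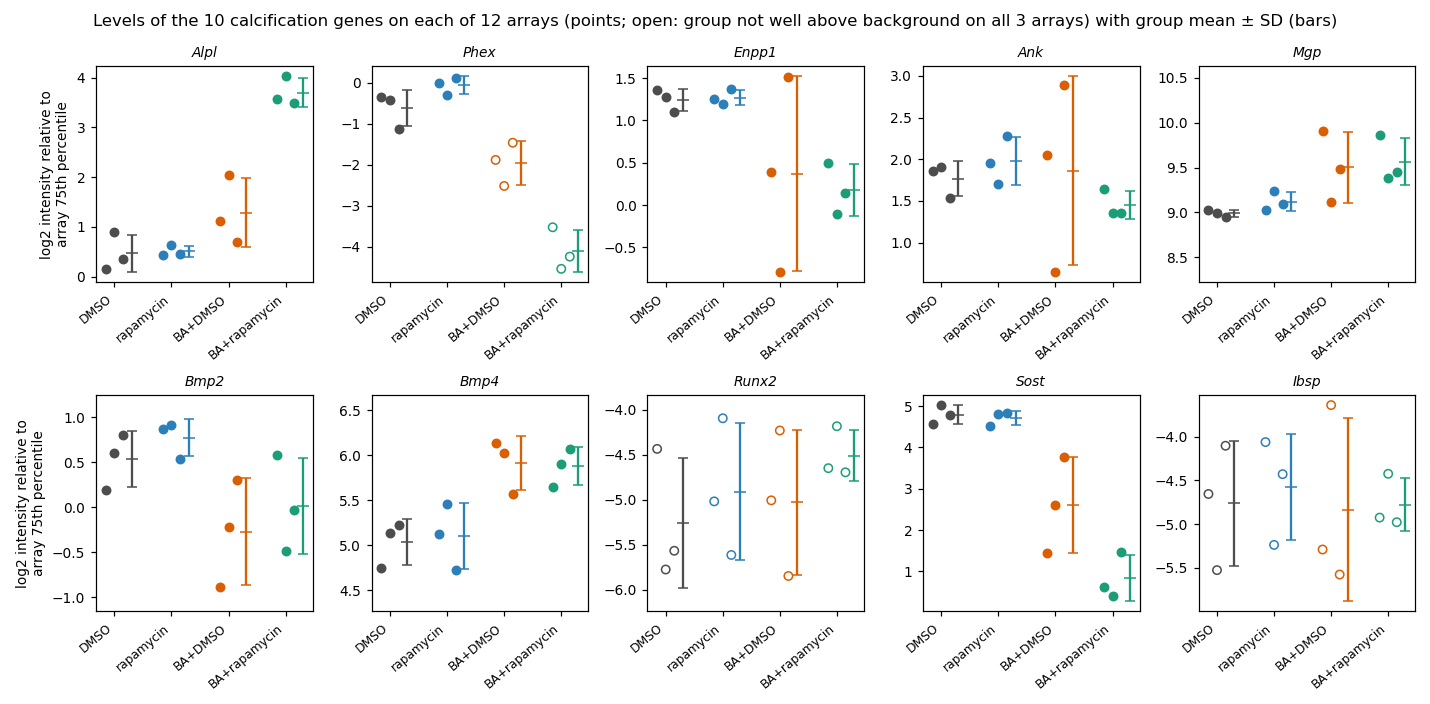
Log2 intensity relative to the array 75th percentile (vertical axis) of the brightest probe of each of the 10 genes, by group (horizontal axis), with 1 point per mouse and bars for mean ± SD (n = 3); open points mark groups where not all 3 arrays were well above background. Alpl lies at 3.49 to 4.03 in BA+rapamycin and at or below 2.05 on every other array, and Sost and Phex fall in the opposite direction.

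Alpl, which degrades pyrophosphate, was high in mice given both the challenge and rapamycin. Its values were 0.15, 0.89 and 0.36 in DMSO, 0.44, 0.64 and 0.45 in rapamycin, 1.11, 2.05 and 0.70 in BA+DMSO and 3.57, 4.03 and 3.49 in BA+rapamycin. The 3 BA+rapamycin arrays stood above the other 9 without overlap, and the BA+DMSO arrays overlapped the DMSO arrays. The probe (mm9 chr4:137297658-137297716, minus strand) was well above background on all 12 arrays. Within BA+DMSO, Alpl was higher on dimmer arrays (75th percentile 132.0, 78.1 and 246.4 for replicates 1 to 3). The highest value, 4.03, was on the dimmest array, BA+rapamycin replicate 2 (74.6), and BA+DMSO replicate 2, nearly as dim, read 2.05. In DMSO and in rapamycin Alpl did not follow brightness. The part of array brightness in the Alpl values was not tested. BA+rapamycin exceeded BA+DMSO by 2.41 (SE 0.32), a 5.32-fold difference, and exceeded rapamycin by 3.19 (SE 0.32), a 9.11-fold difference. Both differences rest on the group on which the gene was selected and carry no test. The challenge alone gave a difference of 0.82 (SE 0.32), which did not pass (adjusted p = 0.0955). Leaving out 1 BA+DMSO array moved it both ways, to 1.11 without replicate 3 (adjusted p = 0.0183) and to 0.44 without replicate 2 (adjusted p = 0.216). With the slide as a random block it passed. Rapamycin alone gave 0.04 (SE 0.32, adjusted p = 1.00).

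Phex, the bone cell peptidase, ran the other way. Its values were -0.34, -0.41 and -1.13 in DMSO, 0.00, -0.30 and 0.13 in rapamycin, -1.88, -2.52 and -1.46 in BA+DMSO and -3.52, -4.54 and -4.24 in BA+rapamycin. Every challenged array lay below every unchallenged one, and the BA+rapamycin arrays lay lowest. Within each challenged group Phex was lowest on the dimmest array and highest on the brightest, and the part of brightness was not tested. The probe (mm9 chrX:153596731-153596790, minus strand) was well above background on all unchallenged arrays, on 2 of 3 BA+DMSO arrays and on no BA+rapamycin array, so the BA+rapamycin level is a bound. Against the lowest signal that counted as above background, Phex was at least 6.21-fold lower in BA+rapamycin than in rapamycin. No bound is given against BA+DMSO, where only 2 of 3 arrays were above background. The measured differences from rapamycin and BA+DMSO were -4.04 (SE 0.33) and -2.14 (SE 0.33). With another background correction (normexp) these differences were -1.34 and -0.32, so the bound holds for the main processing only. Both rest on the group on which the gene was selected, and neither carries a test.

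The fall of Phex with the challenge alone is a difference of means that holds no BA+rapamycin array, while its SE draws on the spread of all 12 arrays. The probe entered the tests only through the unchallenged groups, where it was high, so a fall was favoured before the test. The difference is therefore given with no p, and its call in the counts below is no support. BA+DMSO measured lower than DMSO by a log2 difference of -1.33 (SE 0.33). Only 2 of 3 BA+DMSO arrays were above background, so no fold is given. Normexp background correction cut the difference to -0.58. The call was lost with quantile normalization, in the deposited matrix and when only these 2 groups entered the fit. It was also lost without DMSO replicate 1, DMSO replicate 2 or BA+DMSO replicate 1. With the slide as a fixed block the difference was -1.25 and the call was lost, and slide and challenge cannot be told apart there. Rapamycin alone differed by 0.56 (SE 0.33, adjusted p = 1.00), although all 3 rapamycin arrays lay above all 3 DMSO arrays.

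**Figure D2:**
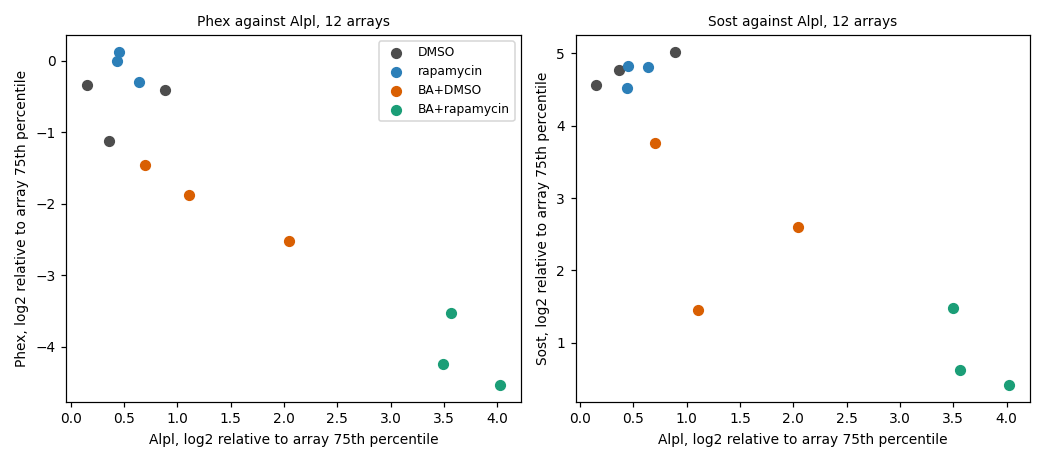
Phex (left, vertical axis) and Sost (right, vertical axis) against Alpl (horizontal axis), all as log2 intensity relative to the array 75th percentile, with 1 point per mouse in the colour of its group. The BA+rapamycin arrays sit at the high-Alpl end of both panels, with Phex at -3.52 or lower and Sost between 0.41 and 1.47.

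Sost, the source of sclerostin, lost most of its signal under challenge. Its values were 4.57, 5.02 and 4.78 in DMSO, 4.52, 4.81 and 4.83 in rapamycin, 1.46, 2.60 and 3.76 in BA+DMSO and 0.63, 0.41 and 1.47 in BA+rapamycin. No challenged array reached the lowest unchallenged array, and the 2 challenged groups overlapped only where BA+DMSO replicate 1 met BA+rapamycin replicate 3. The probe (mm9 chr11:101824067-101824126, minus strand) was well above background on all 12 arrays. BA+DMSO was lower than DMSO by -2.18 (SE 0.47, adjusted p = 0.0105), a 4.54-fold fall, and BA+rapamycin was lower than rapamycin by -3.88 (SE 0.47, adjusted p = 0.000393), a 14.7-fold fall. On slide 2 alone, with 2 rapamycin arrays, the second difference was -3.98 (adjusted p = 0.013), and no alternative ended that call. The first call was lost without DMSO replicate 2 (adjusted p = 0.0502), when only these 2 groups entered the fit (adjusted p = 0.0712) and with the slide as a fixed block (-2.48, adjusted p = 0.368).

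Between the challenged groups, Sost differed by -1.77 (SE 0.47), which did not pass (adjusted p = 0.114). It passed without BA+DMSO replicate 1 (-2.34, adjusted p = 0.033) or replicate 2 (-1.77, adjusted p = 0.032). It was smaller without replicate 3 (-1.19, adjusted p = 0.215) and with array weights (-0.68, adjusted p = 0.213). These weights were 1.88, 0.10 and 0.20 for BA+DMSO replicates 1 to 3, so they put most of that group's mean on replicate 1. Rapamycin alone gave -0.07 (SE 0.47, adjusted p = 1.00).

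Bmp4, a bone morphogenetic protein, rose with the challenge, with or without rapamycin. Its values were 4.74, 5.14 and 5.22 in DMSO, 5.12, 5.46 and 4.72 in rapamycin, 6.13, 6.03 and 5.57 in BA+DMSO and 5.65, 5.91 and 6.07 in BA+rapamycin. All 6 challenged arrays stood above all 6 unchallenged arrays. The rise was 0.88 (SE 0.24, adjusted p = 0.0264) against DMSO, 1.84-fold, and 0.78 (SE 0.24, adjusted p = 0.0251) against rapamycin, 1.71-fold, and the challenged groups differed by -0.04 (SE 0.24, adjusted p = 0.934). Normexp background correction cut the second rise to 0.34 (adjusted p = 0.154). The slide as a fixed block gave 0.91 and 0.78 (adjusted p = 0.513 and 0.062). The first call was lost without any 1 DMSO array or BA+DMSO replicate 1, and the second without rapamycin replicate 1 or 3 or BA+rapamycin replicate 2 or 3. The first was also lost with no filter, with only its groups in the fit and at the study's threshold. The second was also lost in the deposited matrix, on slide 2 alone and at the study's threshold. The brighter probe (mm9 chr14:47003391-47003450, minus strand) gave these values, and a second Bmp4 probe (mm9 chr14:47003198-47003257) was above background on no array.

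Bmp2, the related ligand, did not pass. Its values were 0.19, 0.61 and 0.80 in DMSO, 0.87, 0.91 and 0.53 in rapamycin, -0.89, -0.22 and 0.30 in BA+DMSO and 0.58, -0.49 and -0.03 in BA+rapamycin, with overlap between challenged and unchallenged mice. The probe is on mm9 chr2:133388260-133388319, plus strand. The difference was -0.81 (SE 0.33, adjusted p = 0.111) in BA+DMSO against DMSO and -0.75 (SE 0.33, adjusted p = 0.0888) in BA+rapamycin against rapamycin. The first passed without BA+DMSO replicate 3 (-1.09, adjusted p = 0.026), and the second without BA+rapamycin replicate 1 (-1.03, adjusted p = 0.040). They were smaller without BA+DMSO replicate 1 (-0.50 for the first, adjusted p = 0.340) and without BA+rapamycin replicate 2 (-0.50 for the second, adjusted p = 0.283). The first also passed with array weights or with the slide as a random block.

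The genes that supply pyrophosphate did not pass in any of these comparisons. Enpp1 measured 1.36, 1.27 and 1.1 in DMSO, 1.25, 1.19 and 1.37 in rapamycin, 0.39, -0.79 and 1.51 in BA+DMSO and 0.50, -0.11 and 0.15 in BA+rapamycin. The BA+rapamycin arrays lay below all unchallenged arrays, and the BA+DMSO arrays spanned from the lowest to the highest value of the 12. In both challenged groups Enpp1 was lowest on the dimmest array and highest on the brightest, and the part of brightness was not tested. The difference was -0.88 (SE 0.44, adjusted p = 0.178) in BA+DMSO against DMSO and -1.09 (SE 0.44, adjusted p = 0.0659) in BA+rapamycin against rapamycin. Without BA+DMSO replicate 3 these became -1.45 (adjusted p = 0.0058) and -1.09 (adjusted p = 0.009), and the second passed also without BA+DMSO replicate 2 (adjusted p = 0.007). The first shrank to -0.29 (adjusted p = 0.493) without BA+DMSO replicate 2. The brighter Enpp1 probe (mm9 chr10:24358048-24358107) and the dimmer one (mm9 chr10:24361540-24361599) disagreed, since the dimmer probe gave 0.60 (SE 0.27, adjusted p = 0.133) for the challenge, opposite in sign. The mean of the tested Enpp1 probes gave -0.14 and -0.44 for the 2 comparisons, which did not pass (adjusted p = 0.802 and 0.317).

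Ank measured 1.86, 1.91 and 1.53 in DMSO, 1.95, 1.71 and 2.28 in rapamycin, 2.06, 0.64 and 2.89 in BA+DMSO and 1.64, 1.36 and 1.35 in BA+rapamycin (mm9 chr15:27523965-27524024). The 3 BA+rapamycin arrays lay close together just below the rapamycin arrays, while BA+DMSO held both the lowest and the highest array. Within BA+DMSO, Ank was lowest on the dimmest array and highest on the brightest, and the part of brightness was not tested. The differences were 0.09 (SE 0.44, adjusted p = 0.899) for the challenge, -0.53 (SE 0.44, adjusted p = 0.341) for the challenge under rapamycin and -0.41 (SE 0.44, adjusted p = 0.555) for rapamycin under challenge. The first and the last turned on single BA+DMSO arrays. Without replicate 2 they were 0.70 (adjusted p = 0.072) and -1.02 (adjusted p = 0.015), and without replicate 3 they changed sign, to -0.42 (adjusted p = 0.370) and 0.10 (adjusted p = 0.951), so no direction is given for Ank.

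Mgp, the matrix inhibitor, was bright on all arrays (mm9 chr6:136821125-136821184). It measured 9.03, 9.0 and 8.95 in DMSO, 9.03, 9.24 and 9.09 in rapamycin, 9.91, 9.11 and 9.49 in BA+DMSO and 9.86, 9.38 and 9.46 in BA+rapamycin. Every BA+DMSO array was above every DMSO array, but the difference of 0.51 (SE 0.21, adjusted p = 0.111) did not pass, and quantile normalization reduced it to 0.03. The challenge under rapamycin gave 0.45 (SE 0.21, adjusted p = 0.110), which turned to -0.49 with quantile normalization, so no direction is given for Mgp. Without BA+DMSO replicate 2 both differences passed (0.71 with an adjusted p of 0.019, and 0.45 with 0.039). The first also passed with array weights or with the slide as a random block.

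The bone genes at the end of this programme had no measurable signal. The brightest Runx2 probe (mm9 chr17:44951128-44951187) read between -5.85 and -4.10 over the 12 arrays and the brightest Ibsp probe (mm9 chr5:104740413-104740472) between -5.58 and -3.64, and their groups overlapped in every comparison. These are readings near background, so no fold was taken from them.

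**Figure D3:**
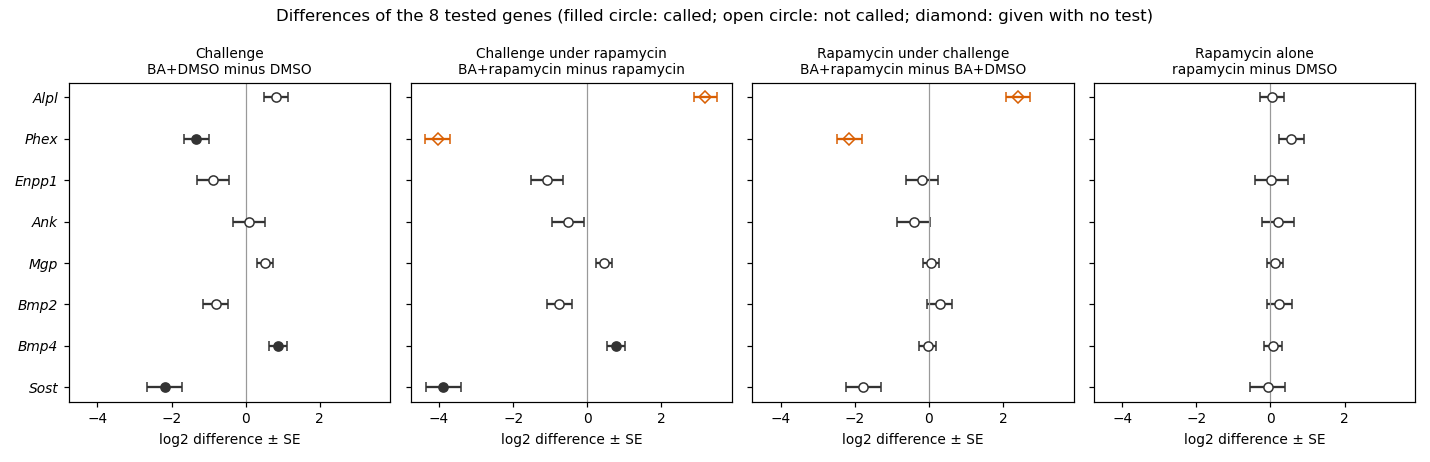
Log2 difference ± SE (horizontal axis) of the 8 tested genes (vertical axis) in 4 comparisons of groups of 3 mice; filled circles were called, open circles were not, and diamonds mark the differences of Alpl and Phex given with no test. Sost stands at -2.18 and -3.88 in the 2 challenge panels, and all 8 genes lie between -0.07 and 0.56 for rapamycin alone. The call of Phex for the challenge is no support, because the probe entered the tests only where it was high.

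Of the 8 tested genes, the challenge called 3 (Bmp4 higher, Phex and Sost lower), against 21.4% of 20026 genes called by the same rule, 10.4% higher and 11% lower. Phex passed the filter only where it was high, so its call is no support. Of the 7 members that passed it in both an unchallenged and a challenged group, 2 (Bmp4 and Sost) were called, against 21.6% of the 16975 genes that did so. In the comparisons with BA+rapamycin, 6 members were not selected on that group. The challenge under rapamycin called 2 of these 6 (Bmp4 higher, Sost lower), against 42.7% of all genes, 19.8% higher and 22.9% lower. Rapamycin under challenge called none of the 6 by limma, against 0.305% of all genes. At an unadjusted limma p under 0.05 there was 1 of the 6 (Sost), against 5585 of all 27801 probes. Alpl and Phex were past the threshold for a call in both comparisons. Nothing is read from that because they were selected on their level in BA+rapamycin mice. Rapamycin alone called none of the 8, against 0.00499% of all genes. None of the 8 was at an unadjusted limma p under 0.05, against 1187 of all 27801 probes. The median difference was -0.36 over the 8 with the challenge and -0.64 over the 6 with the challenge under rapamycin, beside -0.02 and -0.07 over all genes.

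Whether rapamycin acted differently in challenged mice was tested as an interaction, the effect under challenge minus the effect alone. No member passed, and limma called 0% of all 20026 genes (of the 6 members not selected on BA+rapamycin, 1 was at an unadjusted p under 0.05), with 1702 of 27801 probes at an unadjusted p under 0.05. For Sost the interaction was -1.70 (SE 0.67, adjusted p = 0.737) and for Bmp4 -0.10 (SE 0.34, adjusted p = 0.922). The value for Sost was -0.53 with array weights. For Alpl, given with no test, it was 2.37 (SE 0.45). For Phex, whose BA+rapamycin level is a bound, it read -2.71, or -0.76 with normexp, and carries no test either.

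The wider pathway was described by 11 lists with 132 further genes, 96 of them tested. The lists were drawn up with earlier results known. The challenge called 32 of the 96 (19 higher, 13 lower), which is 33.3%, and the challenge under rapamycin called 54 (23 higher, 31 lower), which is 56.2%, beside 21.4% and 42.7% of all genes. The lists that follow are read against these shares. Of the 96, 3 entered the tests only through challenged groups (Spp1, Vdr and Gdf7) and 4 only through unchallenged groups (Smad9, Bmp7, Msx2 and Sox9). Calls of these are no support where the gene was high in the group that let it pass. Of the other 89, 28 (31.5%) and 50 (56.2%) were called, beside 21.6% and 44.2% of the 16975 genes that passed in both an unchallenged and a challenged group. The median differences of the 96 were 0.10 and 0.07. Leaving out 1 array moved the first count to between 11 and 47 and the second to between 41 and 62, and the slide as a fixed block gave 0 and 44. Calls over all 27801 probes moved too, from 5697 to between 2051 and 10574 and from 11602 to between 6530 and 15816. With the slide as a fixed block they were 15 and 7923. The first fell to 11 without DMSO replicate 2, to 14 without BA+DMSO replicate 1 and to 18 without DMSO replicate 1 or 3, and it rose to 47 without BA+DMSO replicate 3. Rapamycin under challenge called 1 of the 96 and rapamycin alone called none. The first of these became 37 without BA+DMSO replicate 2, 4 without BA+DMSO replicate 1, and 0 without 1 of several others (DMSO replicate 2, rapamycin replicate 1 or any BA+rapamycin array). Over all 27801 probes, 78 were called in the main fit, 11092 without BA+DMSO replicate 2 and 224 without BA+DMSO replicate 1. The rise to 37 therefore went with a rise over the whole array.

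**Figure D4:**
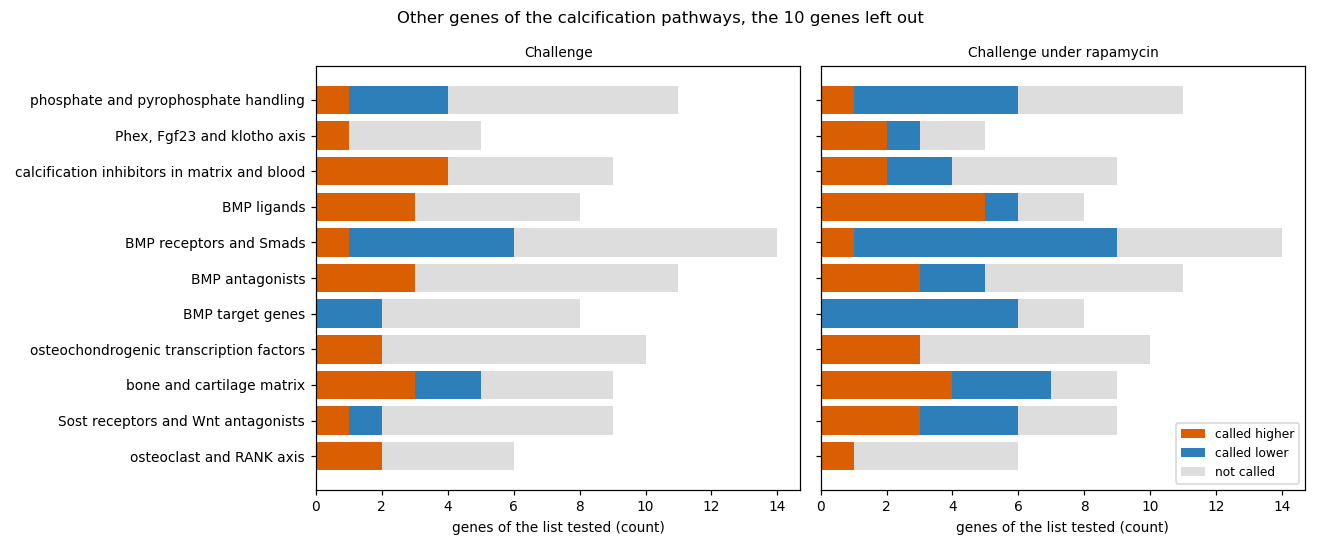
Number of tested genes of each pathway list (horizontal axis, count) called higher, called lower or not called, by the challenge (left) and the challenge under rapamycin (right), with the 10 members left out; the list of BMP ligands holds Bmp1, which encodes a proteinase. Of the 8 BMP target genes, none was called higher in either panel, and 2 and 6 were called lower.

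Among genes that handle phosphate and pyrophosphate, the challenge called 1 of 11 higher and 3 lower, and the challenge under rapamycin 1 higher and 5 lower. Entpd1, an ectonucleotidase that breaks down ATP outside the cell, fell by 1.63 (SE 0.25, adjusted p = 0.00183) with the challenge. Slc20a2, a phosphate importer, fell by 1.15 (SE 0.22, adjusted p = 0.00519), and Xpr1, a phosphate exporter, fell by 0.97 (SE 0.27, adjusted p = 0.0272). Ppa1, a pyrophosphatase of the cytosol, rose by 0.93 (SE 0.24, adjusted p = 0.0220). All 4 were called in the same direction in the challenge under rapamycin, where Entpd2, a further ectonucleotidase, and Ppa2, the mitochondrial pyrophosphatase, also fell (-0.96 and -0.77).

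Around Phex, the challenge called 1 of 5 tested genes higher, and the challenge under rapamycin 2 higher and 1 lower. Fgf23, the hormone that Phex restrains, measured 6.31, 6.39 and 6.86 in DMSO, 6.38, 6.62 and 6.20 in rapamycin, 7.82, 8.65 and 6.46 in BA+DMSO and 8.13, 8.67 and 8.36 in BA+rapamycin. The BA+rapamycin arrays lay above all unchallenged ones and BA+DMSO replicate 3 among them. The difference was 1.99 (SE 0.44, adjusted p = 0.00602) for the challenge under rapamycin and 1.12 (SE 0.44, adjusted p = 0.0912) for the challenge. The highest values, 8.67 and 8.65, were on the dimmest arrays (75th percentile 74.6 and 78.1). BA+DMSO replicate 3, at 6.46, was the brightest challenged array (246.4). The part of array brightness in the Fgf23 values was not tested. The probe of Itgam, a macrophage marker, read close to the Fgf23 probe on every array. It read 6.38, 6.45 and 6.90 in DMSO and 6.48, 6.69 and 6.27 in rapamycin. It read 7.84, 8.74 and 6.53 in BA+DMSO and 8.14, 8.67 and 8.38 in BA+rapamycin. Whether the Fgf23 probe measured Fgf23 alone was not tested, so its differences describe the probe and are not read as a rise of the hormone. Vdr, the vitamin D receptor, was the gene counted for the challenge. All 3 of its arrays were well above background only in BA+rapamycin, the group where it was highest and through which it entered the tests, so its calls are no support and no p is given. It averaged -2.78 in BA+DMSO, where 2 of 3 arrays were above background, and -4.35 in DMSO, where none was, so no fold is given. Fam20c, a kinase of secreted matrix proteins, fell by 0.88 (SE 0.22, adjusted p = 0.0109) in the challenge under rapamycin.

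Of 9 other tested inhibitors of calcification in matrix and blood, the challenge called 4 higher and none lower, and the challenge under rapamycin 2 higher and 2 lower. Spp1, which encodes osteopontin, was above background on no unchallenged array, with values of -6.01 to -4.41, and on all 6 challenged arrays, with values of 1.57, -1.88 and 2.05 in BA+DMSO and 2.01, 1.18 and 0.88 in BA+rapamycin. It was at least 24.4-fold higher in BA+DMSO than in DMSO and at least 43.4-fold higher in BA+rapamycin than in rapamycin. The first bound rests on a mean that BA+DMSO replicate 2, at -1.88, pulls down. Spp1 entered the tests only through the challenged groups, so these bounds are given with no p. Spp1 is also made by macrophages. Of the 6 macrophage markers that passed the filter in both an unchallenged and a challenged group, 5 were called higher with the challenge. The other, Itgam, was the brightest and was not called. The summed level of the 7 on the array read 6.77 to 7.12 in DMSO and 7.45 to 8.91 in BA+DMSO. Itgam makes up most of that sum, at 7.84, 8.74 and 6.53 in BA+DMSO, close to the readings of the Fgf23 probe given above. Replicate 2, where Itgam was highest, was the lowest of the BA+DMSO arrays for the 5 called markers, so the sum does not follow them. The part of macrophages in the result was not tested. Tnfrsf11b, osteoprotegerin, a decoy receptor that restrains osteoclasts, rose by 2.50 (SE 0.47, adjusted p = 0.00524) with the challenge and by 2.65 (SE 0.47, adjusted p = 0.00236) with the challenge under rapamycin. The other rises with the challenge were those of Ahsg, fetuin-A, by 0.76 (adjusted p = 0.0484), where the groups overlapped, and of Vkorc1, which recycles vitamin K, by 0.67 (adjusted p = 0.0243). Ahsg averaged 1.88 in DMSO and 2.64 in BA+DMSO, against 2.92 in rapamycin and 1.83 in BA+rapamycin, so its fall of 1.09 (adjusted p = 0.00652) in the challenge under rapamycin started from a rapamycin level above DMSO (1.04, adjusted p = 0.554) and ended near the DMSO level. Fbln5, an elastic fibre protein, fell there by 1.35 (SE 0.25, adjusted p = 0.00260).

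BMP signalling was described by its ligands, antagonists, receptors with Smads, and targets, with the members Bmp2, Bmp4 and Sost left out of the counts. Of 8 other tested genes of the ligand list, 3 rose with the challenge, and 5 rose and 1 fell under rapamycin. Gdf6, a growth factor of joint and skeleton, rose by 2.07 (SE 0.39, adjusted p = 0.00508) and 2.18 (SE 0.39, adjusted p = 0.00236). Gdf5 rose in both comparisons too, with overlapping groups in the challenge, and Bmp8a rose under rapamycin. Bmp6 fell there with overlapping groups, from a mean of 2.12 in rapamycin to 1.23 in BA+rapamycin, beside 1.40 in DMSO. Gdf7, counted as higher in both, was well above background on all 3 arrays only in BA+rapamycin, so its calls are no support. The fifth counted there was Bmp1, which despite its name encodes a procollagen proteinase and not a ligand. Of 11 tested antagonists, 3 rose with the challenge, Fst by 1.96 (adjusted p = 0.00251), Bmper by 1.92 (adjusted p = 0.0105) and Nog by 1.51 (adjusted p = 0.0305). The same 3 rose under rapamycin, where Chrdl1 and Twsg1 fell. Of 14 receptors and Smads, 1 rose and 5 fell with the challenge, and 1 rose and 8 fell under rapamycin.

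Bmpr1a, a type I receptor, measured 3.49, 3.63 and 3.49 in DMSO and 2.00, 1.16 and 2.82 in BA+DMSO, a fall of 1.55 (SE 0.33, adjusted p = 0.00910). Smad9, a signal carrier of this pathway, entered the tests only through the unchallenged groups, so it is given with no p. It was above background on 1 of 3 BA+DMSO arrays, where the measured difference was -2.47, and on no BA+rapamycin array, where it was at least 4.99-fold lower than in rapamycin. Of the 8 target genes, all tested, 2 fell with the challenge and 6 with the challenge under rapamycin. Id4, an inhibitor of differentiation, fell by 1.77 (SE 0.55, adjusted p = 0.0434) and 2.83 (SE 0.55, adjusted p = 0.00358). Id1, a direct target, fell by 1.93 (SE 0.46, adjusted p = 0.00885) in the latter and differed by -0.43 (adjusted p = 0.542) in the former.

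Among 10 other tested bone and cartilage transcription factors, 2 rose with the challenge and 3 under rapamycin, and none fell. Runx1, a relative of Runx2 known from blood cells, rose by 2.01 (SE 0.44, adjusted p = 0.0105) and 3.24 (SE 0.44, adjusted p = 0.000646). Dlx3, a homeobox factor of bone and tooth, rose by 0.86 (SE 0.21, adjusted p = 0.0158) and 1.15 (SE 0.21, adjusted p = 0.00244). Sox5, a cartilage factor, was the third to rise under rapamycin. Of 9 tested matrix genes of bone and cartilage, 3 were counted higher and 2 fell with the challenge. The 3 were the type I collagen genes Col1a1 and Col1a2, and Spp1, whose call is no support as said above. Under rapamycin 4 were counted higher, these and Sparc, and 3 fell, with Comp beside the 2 that follow. Omd and Ogn, small leucine-rich proteins of bone and connective tissue, were those that fell in both. Omd measured 2.32, 2.00 and 1.69 in DMSO, 2.50, 1.94 and 2.85 in rapamycin, 0.67, 0.12 and 0.68 in BA+DMSO and -1.15, -1.18 and -1.26 in BA+rapamycin. The BA+DMSO arrays lay below all unchallenged arrays and above all BA+rapamycin arrays. Omd was the 1 gene of the 96 called for rapamycin under challenge, at -1.69 (SE 0.26, adjusted p = 0.0275). That call was lost in 12 of 27 alternatives, with normexp (-0.92, adjusted p = 0.265), no filter, the slide as a fixed block, only slide 2, only these groups, the study's threshold, and without BA+DMSO replicate 3, DMSO replicate 2, rapamycin replicate 1 or any 1 of the BA+rapamycin arrays.

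Of 9 other genes of Sost's receptors and Wnt antagonists, 1 rose and 1 fell with the challenge, and 3 rose and 3 fell under rapamycin. The rise with the challenge was that of Sfrp1, a secreted Wnt antagonist. Wif1, which binds Wnt proteins, measured 3.76, 3.89 and 3.19 in DMSO and 1.07, 1.94 and 2.81 in BA+DMSO, and fell by 1.67 (SE 0.36, adjusted p = 0.0104), and by 3.30 (SE 0.36, adjusted p = 0.000224) under rapamycin. Lrp6, a Wnt co-receptor that sclerostin binds, rose by 1.05 (SE 0.29, adjusted p = 0.0172) under rapamycin, as did Sfrp4 and Sfrp5, and Sfrp2 and Dkk3 fell. Of 6 tested genes of the osteoclast axis, 2 rose with the challenge, Tnfrsf11b and the osteoclast phosphatase Acp5, which rose by 1.37 (SE 0.42, adjusted p = 0.0410). Tnfrsf11b was the 1 that rose under rapamycin.

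The genes most like Alpl over the 12 arrays, by Pearson correlation of 1 probe a gene, were Gm4832, Rpl35, Wwc2, Midn and Zswim4 (r = 0.962 to 0.965), and those most like Phex were Omd, Etfa, Mboat2, Arhgef4 and Pcca (r = 0.973 to 0.983). The 12 points fall into groups that share slide and brightness, so these correlations are a description of which genes share a group pattern.

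Marker RNA of blood and of some other cell types differed with the challenge as well. All 5 tested erythroid markers were called higher with the challenge, their summed level reading 4.27 to 6.49 in DMSO, 6.43 to 7.66 in rapamycin, 6.94 to 7.99 under BA+DMSO and 8.36 to 8.56 under BA+rapamycin. Smooth muscle markers had 1 of 8 called lower with the challenge, and their summed level read 11.48 to 11.59 in DMSO and 11.26 to 12.24 in BA+DMSO. In the challenge under rapamycin 1 of the 8 was called higher and 3 lower, with a summed level of 11.34 to 11.58 in rapamycin and 11.77 to 12.14 in BA+rapamycin. Of 5 tested mesothelium markers, 3 passed the filter in both an unchallenged and a challenged group, and all 3 were called higher with the challenge (summed level of the 5 -0.87 to 1.74 in DMSO and 2.74 to 3.86 in BA+DMSO) and none in the challenge under rapamycin. Of 5 tested chondrocyte markers, Comp was called lower in the challenge under rapamycin, and Col9a2 and Hapln1 were too but passed the filter only through the unchallenged groups, so their calls are no support (summed level of the 9 on the array 3.93 to 4.41 in rapamycin and 3.06 to 3.38 in BA+rapamycin). The part of these cells in the member results was not tested.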

How the data were processed

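RNA of 12 mouse aortas was measured on 1-colour Agilent arrays. Per the file headers, the authors read images with Feature Extraction 10.7.1.1 (the labels name 9.5.1.1) and deposited scanner files of 62976 spots, 3671 of them controls, whose processed signal is a background-subtracted, detrended intensity on a linear scale. A deposited matrix holds intensity that its values show to be quantile normalized. Flags per spot are 0 or 1 and carry no unit. DMSO titles begin with Pre, which the study uses for mice before the challenge, while the series record gives DMSO and day 3. They were treated as DMSO mice on day 3.

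Processed signals were put on the log2 scale, spots flagged as outliers removed, spots averaged per probe (6 of 55681 probes dropped) and each array's 75th percentile subtracted. A probe was tested where a share of 0.5 or more of the spots passed the flag for signal well above background in each mouse of some group (27801 probes, 20026 gene names). All 12 arrays went into 1 limma 3.58.1 fit (R 4.3.3) with a mean per group, p values were two-sided and adjusted by Benjamini-Hochberg within each contrast, and the model was tested on simulated data. A gene stands by its brightest tested probe. A bound ("at least") compares the brighter group's mean with, per array, the higher of the lowest signal well above background and the probe's own. The number of arrays limits the precision. The mice are separate samples per the labels, numbered in order of deposition.

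The members, lists and naming rule were chosen with earlier results of these data known. All members are named, at most the 3 largest rises and 3 largest falls of each list and contrast whose higher group was well above background, and the 5 genes most like Alpl and Phex. Genes behind counts of 5 or fewer that this rule left out, Vdr, Ahsg, Vkorc1 and Entpd2 among them, were named after their values were seen. Replicate numbers in titles that share a date were checked as pairs, with correlations of deviations of 0.17, -0.35 and 0.09, so they were not treated as pairs (what the date string marks is not stated). Alternatives were quantile, percentile and normexp scaling, the deposited matrix, other filters, variance models, slide blocks, the study's threshold (unadjusted p under 0.01 with a fold over 4 or under 0.25) and leaving out each array.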

Additional observations from a re-analysis of the deposited data

How the results depend on the processing

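Leaving aside Alpl and Phex in the comparisons with BA+rapamycin, on which they were selected, 5 differences of members were called. Of their 136 values under an alternative 108 stayed called the same way, 28 were no longer called and none turned. These include Phex for the challenge (18 stayed called and 8 did not), whose call is no support as said above. The other 29 differences gained a call in 27 of 794. The counts that follow include Alpl and Phex in every comparison, and in the comparisons with BA+rapamycin they are no test of these genes. The number of members called for the challenge (3) became 6 with gene-by-gene array weights (adding Enpp1, Mgp and Bmp2) or the slide as a random block (adding Alpl, Mgp and Bmp2). It was 1 at the study's threshold, and 0 with only the contrast's groups or the slide as a fixed block. Over all 27801 probes, 5697 were called in the main fit, 13427 with array weights and 10270 with the random block. With only the contrast's groups 1244 were called, and 15 with the fixed block. The array weights put most of the BA+DMSO mean on replicate 1, so calls added with them rest largely on that mouse. For rapamycin under challenge (2) the number of members called was 1 with normexp, no filter, probes above background on all 12 arrays or the slide as a fixed block. It was 0 with only the contrast's groups or only slide 2. The probes called went from 78 of 27801 to 11, 21 of 55675, 38 of 20355, 37, 0 and 0, in the same order. For the challenge under rapamycin (4) it was 7 with array weights, where 17279 of 27801 probes were called against 11602 in the main fit. It was 6 with only the contrast's groups (15673 probes) and 5 with percentile or normexp scaling (11507 and 17341 probes). It was 3 in the deposited matrix, with probes above background on all 12 arrays and at the study's threshold. It was also 3 with the slide as a fixed block (7923 probes) and on slide 2 alone (3268 probes). For the interaction (0) it was 2 with array weights or at the study's threshold, Alpl and Phex both times. With array weights 1365 of 27801 probes were called for the interaction, against 0 in the main fit. Leaving out 1 array gave 0 to 6 for the challenge, 0 to 4 for rapamycin under challenge and 3 to 6 for the challenge under rapamycin. It gave 0 to 2 for the interaction and 0 for rapamycin alone. Calls over the 27801 probes ranged, in the same order, over 2051 to 10574, 30 to 11092, 6530 to 15816, 0 to 3058 and 0 to 4. The 0 for the challenge came without DMSO replicate 2, and that for rapamycin under challenge without BA+rapamycin replicate 2. The cause was not tested.

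With the replicate number and date of the titles as a replicate block, counts were 3, 2, 0, 6 and 0 in the order challenge, rapamycin under challenge, rapamycin alone, challenge under rapamycin and interaction. Enpp1 and Bmp2 joined the fourth, where 13232 of 27801 probes were called against 11602 in the main fit. The replicate numbers pair few arrays, and the correlations given in the methods do not pair them. With the date string of the titles as a random block (correlation 0.496) the counts were 3, 2, 0, 4 and 0, while the probes called for rapamycin under challenge went from 78 to 458. Scaling moved the median of all probes in the challenge under rapamycin from -0.08 to -0.18 (quantile), 0.10 (percentile over probes bright on all arrays) and 0.14 (normexp). Array weights by the default iteration did not converge, so gene-by-gene weights were used. They were 0.10 and 0.20 for BA+DMSO replicates 2 and 3, and 0.54 or more on every other array. Counts of other pathway genes without 1 array or with the slide block were added after seeing the data.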
